A study of Mus musculus with 35 samples.

Results

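The cytosolic ribosomal protein genes were taken as all genes whose symbol is Rpl or Rps followed by a number, with an optional letter or an ending in l, al or l1, together with Rplp0, Rplp1, Rplp2 and Rpsa. The S6 kinase genes and the genes named as pseudogenes were left out. The rule gave 87 of the 54752 genes in the tables, 54 of the large (60S) subunit and 33 of the small (40S) subunit. Of these, 76 carried the plain name of a ribosomal protein and 11 carried an ending that marks a further copy, such as Rpl22l1 or Rps27l. The 4 genes Rpl32l, Rpl6l, Rps12l1 and Rps4l are annotated as processed pseudogenes. Counts of 81 genes were above 0 in all 35 libraries, and Rps12l1 was at 0 in all of them. A filter of 1 CPM (counts scaled to library size) in at least 3 libraries left 82 genes for testing, and Rpl3l, Rpl10l, Rpl6l, Rpl32l and Rps12l1 were not tested.

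Ribosomal proteins and ribosomal RNA form the large and small subunits of the ribosome, which are assembled in the nucleolus and exported to the cytoplasm. Most of their mRNAs start with a C followed by a run of pyrimidines, the terminal oligopyrimidine (TOP) tract, through which their translation follows the mTOR pathway. The genes are expressed in every cell and left many reverse-transcribed copies in mammalian genomes. A few have a second working copy, and some of these are used mainly in the testis or respond to p53.

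RNA was sequenced from mouse embryonic fibroblasts during reprogramming towards pluripotency with the transcription factors Jdp2, Esrrb, Glis1 and Sall4 (JEGS), each carried by a retrovirus. The fibroblasts, at passage 2, came from embryos of CBA/CaJ × C57BL/6J males with an Oct4-GFP transgene and females of a 129 strain, were exposed to virus for 48 hours, and were then kept in iCD3 medium with Rock inhibitor for up to 7 days. There were 3 libraries of JEGS, from days 2, 4 and 6, and 8 libraries, from days 0 to 7, of each of 4 leave-out arms that received the other 3 factors, called here without Esrrb, without Glis1, without Jdp2 and without Sall4. Every arm had the same transgenic fibroblast background, the same medium and at least 3 retroviral factors. No library of uninfected fibroblasts was analysed here, each combination of arm and day was 1 library, and nothing in the labels says which libraries shared a culture. P-values therefore measure the spread between these libraries, in which the days of an arm stand in for replicates. That spread can hold differences between arms in their course over the days, and it may be technical. It cannot be read as an error between repeat experiments.

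Depth ran from 1266379 to 3608456 counts per library, with medians of 1456264 in JEGS, 1586457.5 without Esrrb, 2066217.5 without Glis1, 2197907 without Jdp2 and 2652749.5 without Sall4. A treatment label gives all 4 factors to every sample, so the arms were checked by the level of the factor left out. Esrrb was at most 70.45 TPM (transcript abundance scaled to length and depth) without Esrrb and at least 593.98 TPM in the other 27 libraries. Glis1 was at most 8.98 TPM without Glis1 and at least 206.02 TPM elsewhere. Jdp2 was at most 43.52 TPM without Jdp2 and at least 277.63 TPM elsewhere. Sall4 was at most 7.37 TPM without Sall4 and at least 212.58 TPM elsewhere. For every sample the labels name both a VAHTS and a TruSeq library kit, each with its own NextSeq run, so kit and arm cannot be told apart. All 12 fibroblast markers were detected in every arm, and their summed level ran from 837.08 to 10380.2 TPM over the leave-out libraries.

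Promoters of 64 of the 87 genes were found in the RefSeq table of GRCm38.p6, and 23 genes had no entry. The first bases transcribed are shown for some of the genes called between arms or days, a choice that followed no ranking. The windows hold 15 bases before and 15 bases from the RefSeq start, 5′ to 3′ on the coding strand. Capitals mark the longest unbroken run of C and T in the window.
Rps26 (chr10:128626492-128626521, minus strand): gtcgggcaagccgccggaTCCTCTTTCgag
Rpl35 (chr2:39005117-39005146, minus strand): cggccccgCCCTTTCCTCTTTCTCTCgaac
Rpl12 (chr2:32961697-32961726, plus strand): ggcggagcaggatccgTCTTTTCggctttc
Rpsa (chr9:120127751-120127780, plus strand): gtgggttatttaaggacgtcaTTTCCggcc
Rpl22l1 (chr3:28805493-28805522, plus strand): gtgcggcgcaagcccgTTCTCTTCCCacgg
Rps27l (chr9:66946071-66946100, plus strand): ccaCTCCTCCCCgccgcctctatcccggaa
Rpl7l1 (chr17:46782642-46782671, minus strand): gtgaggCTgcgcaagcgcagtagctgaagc
The run was 18 bases long at Rpl35 and spanned the annotated start, and it was 9 bases long and within 15 bases after the start at Rps26. In Rps27l the run of 9 bases ended before the annotated start. In Rpl7l1 no run was longer than 2 bases.

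A run of at least 8 C or T bases was sought, led by a C and beginning between 10 bases before and 40 bases after the start. This definition was chosen after the sequences were seen. The run was present in 68.75% of the 64 genes and in 18.22% of 26961 other genes. A gene counts where any of its promoters has a match, and the 64 genes have 76 promoters. A start in the strict TOP form, a C at the start followed by at least 4 C or T bases, was present in 21.88% of the ribosomal protein genes and in 2.96% of the others. Motifs were searched on both strands from 250 bases before to 50 bases after the start. The letters CCGGAAG, the core bound by ETS factors, were found in 39.06% of the ribosomal protein genes and 9.86% of the others, and GGGCGG, the GC box, in 60.94% and 38.15%. AAGATGGC, the core bound by YY1, was found in 9.38% and 3.17%, the E box CACGTG in 9.38% and 8.09%, and the TATA form TATAAA in 12.5% and 15.67%. The 120 bases before the start of Rplp2, a stalk protein gene that was lower without Sall4 in every library, carry an ETS core and a GC box, both on the other strand and in capitals.
Rplp2 (chr7:141447531-141447650, plus strand): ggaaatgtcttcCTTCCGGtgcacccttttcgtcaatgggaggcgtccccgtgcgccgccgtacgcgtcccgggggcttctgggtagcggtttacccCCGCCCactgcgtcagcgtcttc
These matches describe letters in a window and say nothing of which factor binds there.

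Levels in TPM, which are per transcript length, spread 93.4-fold over the 76 plainly named genes. The highest means over the 35 libraries were 6448 ± 1247 TPM (SD, n = 35) for Rpl41, a very short basic protein, and 6405 ± 734 TPM for the stalk protein gene Rplp1. Next among the genes shown here, Rps24 stood at 3954 ± 801 TPM and Rpl23a, a protein at the mouth of the exit tunnel, at 3629 ± 637 TPM. Rpl41 and Rplp1 differed by less than their SD, and so did Rps24 and Rpl23a. The lowest means were 69.1 ± 17.0 TPM for Rpl5, 86.1 ± 46.0 TPM for Rpl12, 91.9 ± 39.2 TPM for Rps12, 264 ± 102 TPM for Rpl10 and 350 ± 96.5 TPM for Rps13. The median coefficient of variation over the libraries was 19.5%, and a gene's highest library was at the median 2.27 times its lowest. Rpl19 varied least, at 11.0%, and Rpl12 most, at 53.4%, followed by Rps12 at 42.6%, Rpl10 at 38.7%, Rps26 at 28.4% and Rpsa at 27.8%.

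The low genes shared their reads with copies. RSEM divides reads among transcripts of near-identical sequence, and a search of annotated processed pseudogenes and of genes with a Gm or pseudogene (-ps) name found 1131 copies of 79 of the ribosomal protein genes. Copies held 97.1% of the counts of Rps12 and its copies together, 94.2% for Rpl12, 90.5% for Rpl5 and 85.4% for Rpl10. The leading copies, all identical to the parent over the aligned bases, were Rps12-ps3 at 4870 ± 960 TPM, Gm10275, a copy of Rpl12, at 2544 ± 584 TPM, Rpl10-ps3 at 1574 ± 229 TPM and Gm15500, a copy of Rpl5, at 1252 ± 288 TPM (SD, n = 35). Rps12-ps3 and Rpl10-ps3 are annotated as protein coding despite their names, and the other two as transcribed processed pseudogenes. Values of these 4 parent genes alone are therefore uncertain. Copies held at least 50% of the counts for 11 genes, and under 10% for 58. With copies added, the plainly named genes spread 17.6-fold, between 366 and 6449 TPM.

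**Figure D1:**
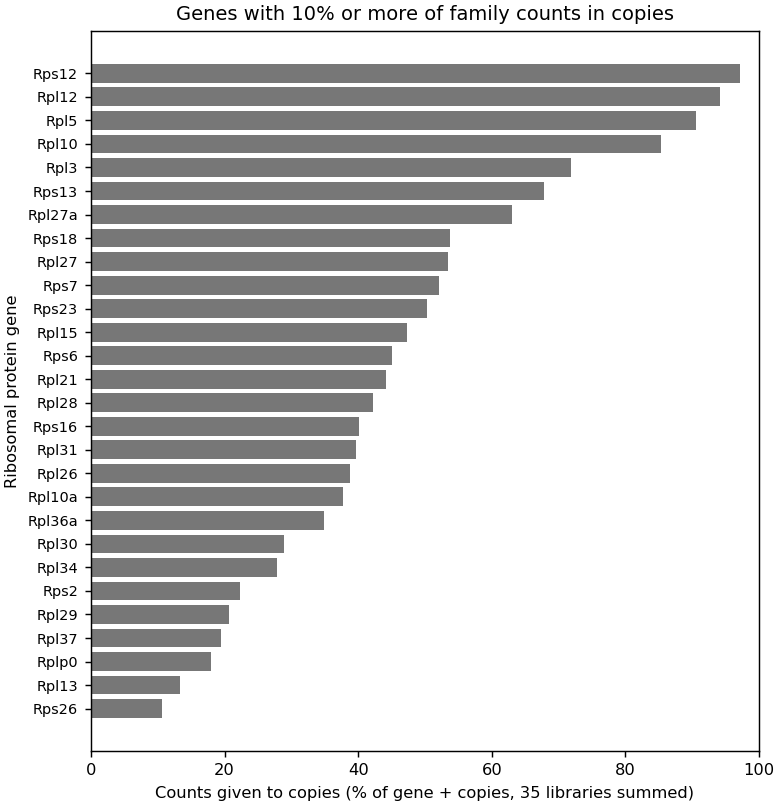
Percent of the counts of a gene and its copies together that were given to the copies (x axis), summed over the 35 libraries, for the genes (y axis) with 10% or more in copies. Rps12, Rpl12, Rpl5 and Rpl10 have 85.4% or more in copies, and the 58 genes with under 10% are not drawn.

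The ribosomal protein genes together took the largest share of all transcripts without Esrrb and the smallest without Sall4, on each of the 8 days. Their summed TPM was 13.0 ± 0.971% of the total in JEGS (SD over the 3 days), 15.8 ± 2.35% without Esrrb, 12.5 ± 0.696% without Glis1, 13.2 ± 1.09% without Jdp2 and 11.1 ± 0.731% without Sall4 (SD over 8 days). These SD values hold the days and are not a replicate error. In JEGS the share was 13.2% on day 2, 12.01% on day 4 and 13.9% on day 6.

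Without Esrrb the share was 16.4% on day 0, 14.2% on days 1 and 2, 13.6% on day 3, 14.1% on day 4, 15.6% on day 5, 18.6% on day 6 and 20.02% on day 7. Without Sall4 it was 11.5%, 12.2%, 11.4%, 11.3%, 10.9%, 10.7%, 10.9% and 9.73% on days 0 to 7. The ratio of these arms, without Esrrb over without Sall4, was 1.17 on day 1, where it was smallest, and 2.06 on day 7, where it was largest. Of the 76 plainly named genes, those with their highest level of the 4 leave-out arms without Esrrb numbered 69, 37, 52, 40, 39, 63, 71 and 70 on days 0 to 7. Without Esrrb the shares of large and small subunit genes were both lowest on day 3 (8.11% and 5.38%) and highest on day 7 (11.8% and 8.15%). The ratio of large to small was highest on day 5, at 1.58, and lowest on day 7, at 1.44. It varied more in this arm (SD 0.045) than in the others (SD at most 0.0161). In these RNA pools a change in the number of cells of a type and a change in RNA per cell cannot be told apart.

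The share is relative to all other transcripts. Transcripts of the mitochondrial genome took a lowest, median and highest 9.36%, 9.82% and 11.2% of TPM in JEGS, 3.57%, 7.28% and 8.81% without Esrrb, 7.70%, 11.4% and 13.3% without Glis1, 4.06%, 7.84% and 8.39% without Jdp2 and 5.12%, 10.8% and 11.9% without Sall4. Their part in the ribosomal protein share was not tested. The genes with under 10% of counts in copies gave the same order at the ends, 12.1% of TPM without Esrrb and 8.46% without Sall4.

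**Figure D2:**
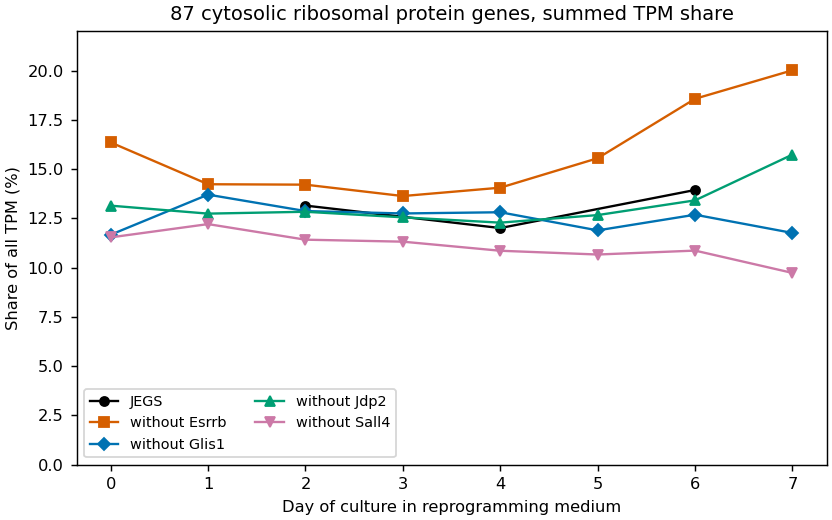
Summed TPM of the 87 ribosomal protein genes as a percent of all TPM (y axis) by day (x axis), 1 point per library, with a line per arm. The line without Esrrb is the highest on all 8 days and reaches 20.02% on day 7, and the line without Sall4 is the lowest and reaches 9.73%.

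The 4 leave-out arms were each compared with the mean of the other 3, with day as a factor, by the edgeR quasi-likelihood F test on counts. A gene counts as called at a Benjamini-Hochberg adjusted p under 0.05 over all 18135 genes tested, and changes are log2 with a standard error (SE). Each arm stands in the mean that the others are set against, so the 4 comparisons are not independent.

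Without Esrrb, the ribosomal protein genes were on balance higher over all 8 days, by a modest amount. Of 82 tested, 46 were higher and 2 lower, where 20.9% of all genes tested were called higher and 21.9% lower. Their median change was 0.24, against −0.01 over all genes. All but 1 of the genes called higher were plainly named, 30 of 46 in the large subunit and 15 of 30 in the small subunit, and 73 of the 76 plainly named genes had a positive change. Of the 48 plainly named genes with few copies, 32 were higher. Days 0, 6 and 7 of this arm stood apart in the share, so the comparison was repeated on days 1 to 5, a choice made after seeing the data. There 15 genes were higher and 3 lower, 14 and 2 of them also called over all days, and the median change was 0.05. Of 17103 genes, 22.1% were called higher and 20.8% lower. Both counts on days 1 to 5 are smaller shares of the 82 genes than the shares over all genes.

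Rpl41 separated the arm completely, though the share of all genes that did so was not counted. Its level was 8558, 7597, 7629, 7766, 8051, 8917, 9159 and 9530 TPM without Esrrb on days 0 to 7, against 4474 to 6813 TPM with a median of 5882 in the other 3 arms. All 8 libraries without Esrrb lay above all 24 others, and the change was 0.42 ± 0.073 (SE; adjusted p = 3.27e-05) and 0.28 ± 0.065 (adjusted p = 0.0013) on days 1 to 5.

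Rpsa, a small subunit protein also known as a laminin receptor, had a lowest, median and highest of 2227, 2495 and 3966 TPM without Esrrb and 1127, 1829 and 2798 TPM in the other 3 arms. It was highest without Esrrb on all 8 days, although the ranges overlapped. The change was 0.45 ± 0.078 (adjusted p = 3.5e-05), and 0.29 ± 0.062 (adjusted p = 0.00075) on days 1 to 5. Of the stalk proteins, which recruit the translation factors that use GTP, Rplp2 was higher by 0.34 ± 0.082 (adjusted p = 0.00123), with 2129 to 3197 TPM without Esrrb and 1204 to 2490 TPM in the other arms. On days 1 to 5 its change was 0.14 (adjusted p = 0.078). Rplp0 and Rplp1 had their highest level without Esrrb on all 8 days and did not pass the test, at 0.16 (adjusted p = 0.0692) and 0.18 (adjusted p = 0.0629).

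The 3 largest upward changes without Esrrb were in Rpl12, Rpl10 and Rps12, whose reads are mostly in copies. Rpl12, at the base of the stalk, had a lowest, median and highest of 73.3, 111 and 271 TPM without Esrrb and 31.5, 67.2 and 159 TPM in the others, a change of 0.64 ± 0.144 (adjusted p = 0.00059). Rps12 had 52.4, 116 and 171 TPM without Esrrb and 37.0, 78.3 and 118 TPM in the others, a change of 0.49 ± 0.144 (adjusted p = 0.007). For both genes the ranges overlapped. With counts of all matched copies added, the changes were 0.47 (adjusted p = 3.4e-05) for Rpl12 and 0.29 (adjusted p = 0.0055) for Rps12. Rpl10, which joins the large subunit last, changed by 0.57 ± 0.138 (adjusted p = 0.0014) alone. With copies added its change was 0.17 (adjusted p = 0.063), and the call was lost. The part of the division of reads by RSEM in this was not tested.

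**Figure D3:**
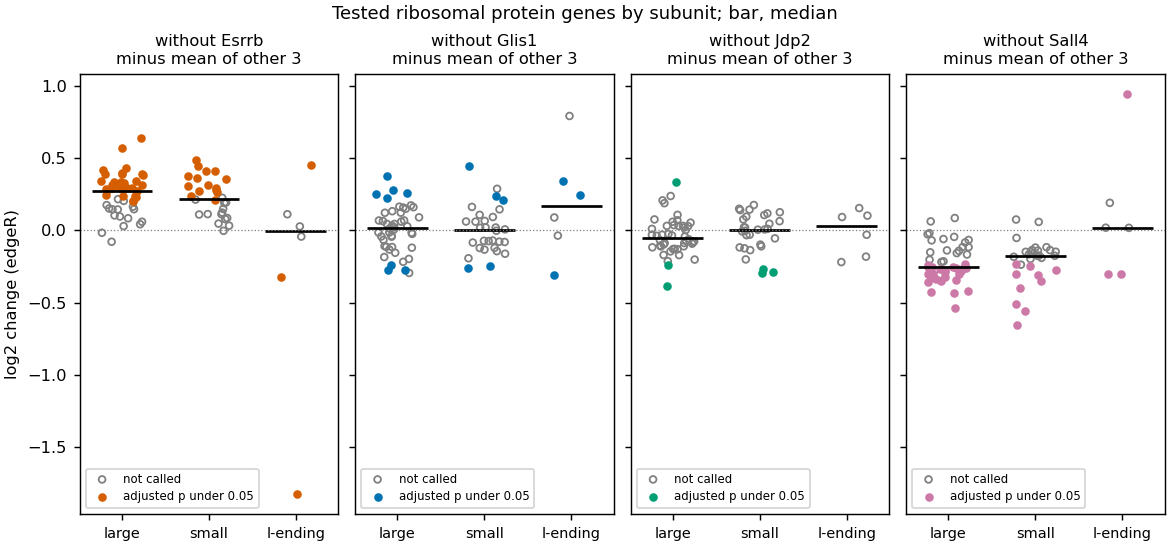
Log2 change of each tested ribosomal protein gene in each leave-out arm against the mean of the other 3 arms (y axis), by subunit and for the copies with an l ending (x axis). Each point is a gene, filled where called, and bars are medians. Most points lie above 0 without Esrrb (46 of 82 called higher) and below 0 without Sall4 (38 of 82 called lower).

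Without Sall4, the ribosomal protein genes were on balance lower. Of 82 tested, 38 were lower and 1 higher, where 19.5% of all genes were called lower and 22.3% higher, and the median change was −0.22 against 0 over all genes. The lower genes included 26 of 46 plainly named large subunit genes and 10 of 30 of the small subunit, and 21 of 48 with few copies. On days 1 to 5, 20 genes were lower, all of them also called over all days, and 3 higher, where 18% and 21.2% of genes were called, and the median change was −0.11. Without the day 7 library of this arm 23 genes were lower.

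Rpsa had 1863, 1781, 1539, 1351, 1298, 1259, 1219 and 1127 TPM without Sall4 on days 0 to 7, against 1595 to 3966 TPM with a median of 2079 in the other 3 arms. It was the lowest of the 4 arms on all 8 days, and each day's level was below that of the day before. The change between arms was −0.51 ± 0.083 (adjusted p = 1.3e-05). Rplp2 had a lowest, median and highest of 1204, 1368 and 1609 TPM without Sall4 and 1665, 2109 and 3197 TPM in the others, with no overlap and a change of −0.42 ± 0.085 (adjusted p = 0.00022). The other stalk genes Rplp0 and Rplp1 were not called, at −0.07 and 0.09.

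Rps24, Rpl23a and Rpl35a did not overlap with the other arms either. They were singled out after their values were seen, and the share of all genes without overlap was not counted. Rps24, a small subunit protein, had 2931 to 3273 TPM without Sall4 and 3409 to 6558 TPM in the others. Rpl23a had 2682 to 3110 TPM without Sall4 and 3242 to 5564 TPM in the others, a change of −0.27 (adjusted p = 0.0124). Rpl35a had 965 to 1164 TPM without Sall4 and 1183 to 2311 TPM in the others, a change of −0.30 (adjusted p = 0.0141).

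Among the remaining genes lower without Sall4, Rps12 changed by −0.66 ± 0.152 (adjusted p = 0.00087) and Rpl12 by −0.53 ± 0.153 (adjusted p = 0.0058). With copies added these were −0.53 (adjusted p = 1.8e-05) and −0.40 (adjusted p = 4e-04). Rpl36a, the X-linked partner of Rpl36al, had 582 to 755 TPM without Sall4 and 697 to 1494 TPM in the others, a change of −0.43 ± 0.093 (adjusted p = 0.00044). Its ranges overlapped only between 697 and 755 TPM. Pseudogene copies held 34.8% of the counts of Rpl36a and its copies, and these values leave them out. Rpl36al itself changed by 0.02 and was not called. The gene called higher was Rpl39l, a testis-enriched copy, at 0.94 ± 0.377 (adjusted p = 0.0457), from 0 to 14 counts per library, and the call was lost without any of 18 of the 32 libraries (adjusted p up to 0.155) and on days 1 to 5.

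**Figure D4:**
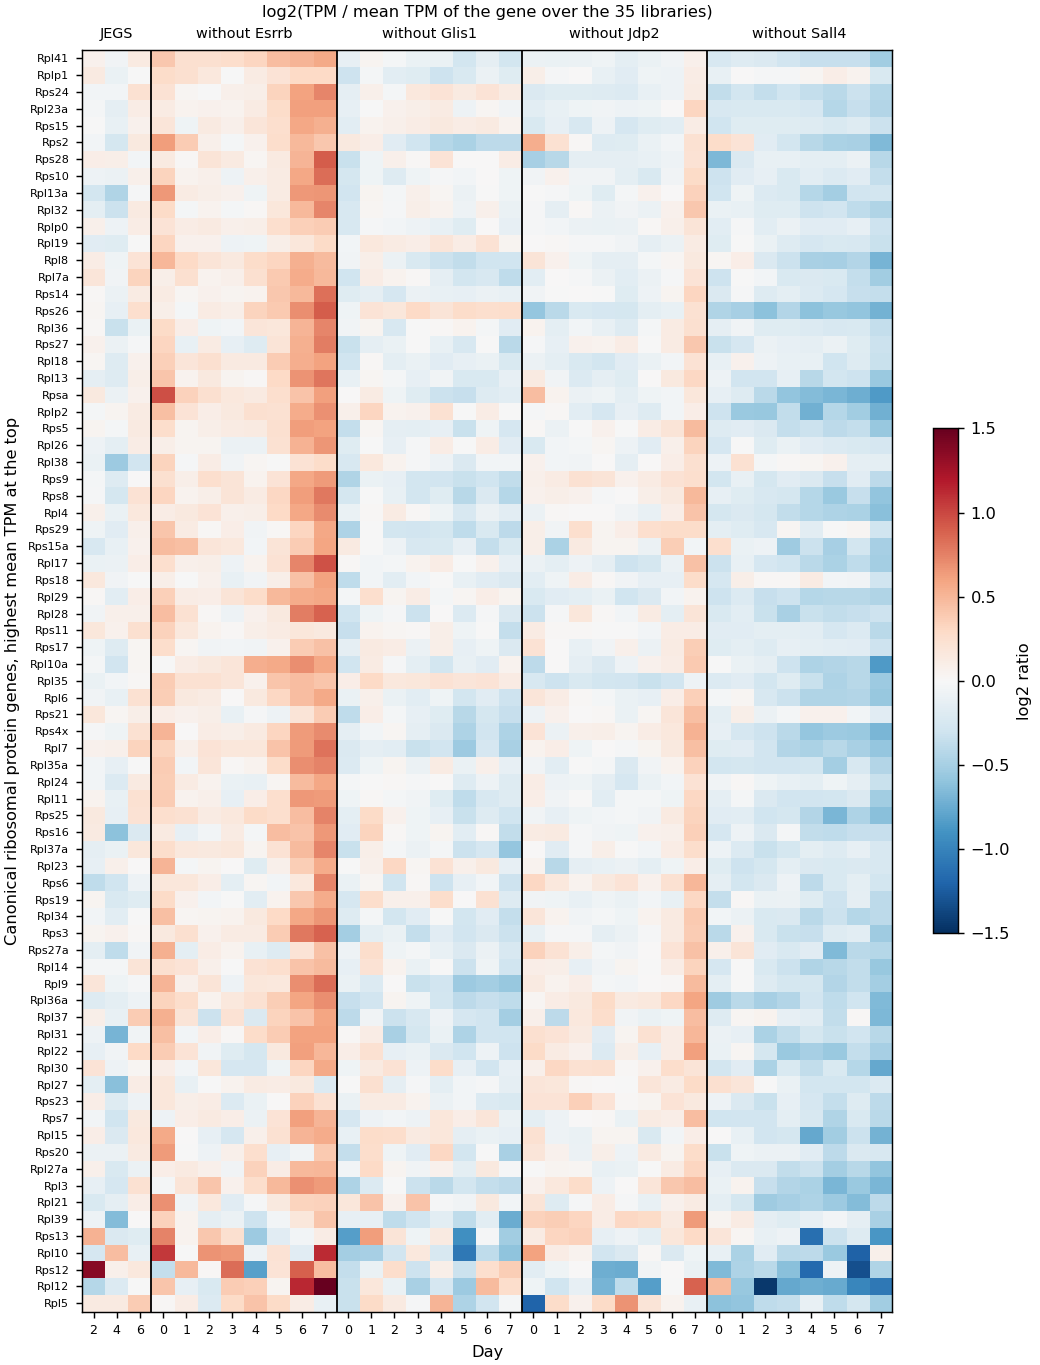
Log2 of TPM over the gene's mean TPM in the 35 libraries (colour, saturated at the ends of its scale) for 75 of the 76 plainly named genes, by library (columns, grouped by arm and ordered by day within an arm) and gene (rows, highest mean level at the top). The columns without Esrrb on days 0, 6 and 7 are above the mean for most genes, and most columns without Sall4 are below it.

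Without Glis1 and without Jdp2 the median changes over all days were near 0, and Rps26, Rpl35 and Rps15 were higher without Glis1 and lower without Jdp2. Without Glis1, 10 genes were higher and 6 lower, where 20% and 16.3% of all genes were called, and the median was 0.02. Without Jdp2, 1 gene was higher and 5 lower, where 14.4% and 9.13% were called, and the median was −0.03. All 4 counts are smaller shares of the 82 genes than the shares over all genes. On log2 TPM with limma the splits were 5 higher and 19 lower without Glis1, and 9 higher and 1 lower without Jdp2. These limma splits have no share over all genes beside them. On days 1 to 5, 28 genes were higher and 1 lower without Glis1 (19.7% and 17.5% of genes called), with a median of 0.15, which is above the 0.05 of the arm without Esrrb on the same days. There 2 were higher and 15 lower without Jdp2 (14.1% and 9.06% called), with a median of −0.07. On TPM the arm without Esrrb stood above that without Glis1 on each of these days. The median log2 ratio of the 76 plainly named genes to the mean of the other 3 arms was 0.135 to 0.424 without Esrrb. For the arm without Glis1 it was −0.173 to 0.055. Why counts and TPM differ in this order was not tested. The counts without Glis1 were 4 higher without the day 4 library of that arm and 6 higher without its day 1 or day 3 library or the day 4 library without Jdp2. They were 1 lower without its day 7 library, 2 lower without its day 0 library and 3 lower without its day 5 library or the day 1 or day 4 library without Sall4. The count of genes lower without Jdp2 was 3 without the day 1 or day 4 library of that arm, and 8 or 9 without any of 7 libraries of other arms: days 1, 3 and 4 without Esrrb, days 0 and 7 without Glis1, and days 0 and 7 without Sall4.

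Rps26, a protein near the mRNA exit channel, had a lowest, median and highest of 2258, 2764 and 2897 TPM without Glis1 and 1448, 2000 and 4414 TPM in the other 3 arms. Without Jdp2 it had 1576, 2000 and 2757 TPM, and 1448, 2538 and 4414 TPM in the other 3 arms. Both ranges lie within those of the others, whose extremes are the arm without Esrrb at the top and the arm without Sall4 at the bottom. The changes were 0.44 ± 0.085 (adjusted p = 0.00013) without Glis1, −0.30 ± 0.089 (adjusted p = 0.015) without Jdp2, 0.41 ± 0.086 (adjusted p = 0.000302) without Esrrb and −0.56 ± 0.091 (adjusted p = 1.4e-05) without Sall4, and all 4 kept their call on days 1 to 5. For Rps26 without Jdp2 the call was lost on days 3 to 7 and with limma on log2 TPM.

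Rpl35, at the mouth of the exit tunnel, had 1582, 1665 and 1818 TPM without Glis1 and 1168, 1215 and 1405 TPM without Jdp2. These 2 arms did not overlap, though the share of all genes without overlap between them was not counted. The changes were 0.38 ± 0.079 (adjusted p = 0.00033) and −0.38 ± 0.083 (adjusted p = 0.00098). Rps15 changed by 0.21 (adjusted p = 0.0391) without Glis1 and −0.27 ± 0.082 (adjusted p = 0.017) without Jdp2, and Rps28 by −0.29 ± 0.097 (adjusted p = 0.032) without Jdp2. Leaving out 1 library lost some of these calls. That of Rps15 without Glis1 was lost without any of 15 of the 32 libraries (adjusted p up to 0.112). That of Rps28 without Jdp2 was lost without the day 1 or day 4 library of that arm (adjusted p up to 0.0586). With limma on log2 TPM, at a pseudocount of 1, Rps15 lost its calls without Glis1 (adjusted p = 0.201) and without Jdp2 (adjusted p = 0.0654). Rps28 lost its call there too (adjusted p = 0.147), on days 3 to 7 (adjusted p = 0.1) and without a day term (adjusted p = 0.0767). With no filter the calls of Rps28 and of Rps15 without Glis1 were lost, and that of Rps28 also with all copies added.

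Rpl39, a short protein lining the exit tunnel, went the other way. It had a lowest, median and highest of 396, 456 and 570 TPM without Jdp2 and 218, 335 and 489 TPM in the other 3 arms, a change of 0.33 ± 0.098 (adjusted p = 0.013), and 0.26 (adjusted p = 0.0693) without the day 7 library of that arm. Without Glis1 it was lowest on 7 of 8 days, at 218 to 336 TPM, against 262 to 570 TPM in the others, a change of −0.27 ± 0.103 (adjusted p = 0.038). Rps29 was likewise lowest without Glis1 on 7 of 8 days (−0.26 ± 0.095, adjusted p = 0.033). Rps9 changed by −0.25 ± 0.082 (adjusted p = 0.018) and Rpl9 by −0.27 ± 0.104 (adjusted p = 0.041) there. The calls of Rpl39, Rps29, Rps9 and Rpl9 without Glis1 were lost on days 1 to 5 and without the day 7 library of that arm, and all but that of Rps9 also without its day 0 or day 5 library. That of Rpl39 was further lost without its day 2 library, that of Rpl9 without its day 6 library, and both without the day 1 or day 4 library without Sall4 (Rpl9 also without its day 2 library), at an adjusted p up to 0.128 for Rpl39, 0.0908 for Rps29, 0.0509 for Rps9 and 0.127 for Rpl9. Rpl5 was higher without Glis1 at 0.26 ± 0.088 (adjusted p = 0.023) and stood at 0.02 with its copies added; the call was lost without the day 1, 2, 4 or 7 library of that arm (adjusted p up to 0.0781).

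JEGS was compared with the leave-out arms on days 2, 4 and 6, in 15 libraries and 16603 genes. Against the mean of the 4 leave-out arms 1 gene was higher and 0 lower, where 4.06% of genes were called in either direction. That gene was Rps12, with 237, 97.0 and 103 TPM in JEGS on days 2, 4 and 6, a change of 0.78 ± 0.212 (adjusted p = 0.049). The value on day 2 stood apart from the others, and the call was lost without any of the 3 JEGS libraries or of 11 others. With copies added the change was 0.21 (adjusted p = 0.339).

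Against single arms, JEGS had 0 genes called against the arms without Esrrb and without Jdp2 by edgeR, where 6.63% and 2.82% of genes were called. At an unadjusted p under 0.05, 5 and 6 genes passed, DESeq2 called 1 and 0, and limma called 0 and 0. Against the arm without Glis1, 1 gene was higher and 3 lower (19.9% of genes called), and against the arm without Sall4, 4 were higher and 0 lower (23.8% called). Rps26 was higher in JEGS, at 2411, 2173 and 2815 TPM on days 2, 4 and 6, than without Sall4, where it lay between 1448 and 1739 TPM on all days (0.55, adjusted p = 0.0146). Rpsa had 2256, 1905 and 2123 TPM in JEGS, above every library without Sall4 (0.52, adjusted p = 0.0132). Both calls were lost without the day 2 library of JEGS or the day 6 library without Sall4, and that of Rps26 also without the day 4 library without Sall4 (adjusted p up to 0.106 for Rps26 and 0.101 for Rpsa). The genes against the arm without Glis1 included Rpl7l1, higher at 0.61 (adjusted p = 0.045), and Rps27l and Rpl35, lower at −0.48 (adjusted p = 0.03) and −0.45 (adjusted p = 0.041). Of these 4 calls 0 were left without the day 4 or day 6 library of JEGS or of the arm without Glis1, and the count was 2 without the day 2 library of JEGS, of the arm without Glis1 or of that without Jdp2, or the day 4 library without Jdp2 or without Sall4. It was 7 without the day 6 library without Esrrb. With scaling by total counts the split was 1 higher and 0 lower. The call count against the arm without Sall4 was 9 without the day 6 library of the arm without Esrrb, 2 without the day 4 library without Sall4 and 1 without its day 6 library.

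Across the days few ribosomal protein genes were called. Of 82 genes, 2 were higher and 1 lower on day 1 than on day 0 (13.9% of all genes called), and 0 were higher and 1 lower on day 7 than on day 1 (11.5% called). For the last comparison 2 genes were higher at an unadjusted p under 0.05, and DESeq2 called 1 of them. The mean slope over days 0 to 7 in the 4 leave-out arms was upward for 4 genes and downward for 6 (15.4% and 15.8% called), and 13 and 4 with scaling by total counts. Rps26 rose by 0.050 per day on the log2 scale (adjusted p = 0.0066), Rps28 by 0.057 (adjusted p = 0.016), and Rps2 fell by 0.073 (adjusted p = 0.0014). The rise of Rps28 lost its call without the day 7 library without Esrrb or without Jdp2, or the day 0 library without Glis1 or without Sall4 (adjusted p up to 0.0986). For Rps26 the range on day 7 was 1448 to 4414 TPM and that on day 0 was 1576 to 2509 TPM, so the arms spread apart. Without the day 0 library of the arm without Esrrb the mean slope was called for 22 genes. On day 1 minus day 0 only 1 gene was called without the day 0 library without Jdp2 or the day 1 library without Sall4, and on day 7 minus day 1 the count was 2 without the day 6 library without Esrrb and 3 without the day 7 library without Sall4.

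Slopes were also compared between arms. Against the mean slope of the other 3 arms, edgeR called 0 genes without Esrrb (6.64% of all genes called), 0 without Glis1 (3.55%), 0 without Jdp2 (0.127%) and 1 without Sall4 (1.84%). At an unadjusted p under 0.05, 10 genes passed without Esrrb, 0 without Glis1, 0 without Jdp2 and 8 without Sall4, while DESeq2 called 2, 0, 0 and 3 and limma 8, 0, 0 and 3. The result without Esrrb turned on day 0 of that arm, whose share was 16.4%. Without that library, 34 of 82 genes had a steeper slope and 0 a shallower one, where 3.46% of 18089 genes were called steeper, with a median slope difference of 0.10 per day. The gene called without Sall4 was Rpl10a, the protein of the mobile stalk beside the site where tRNA leaves the ribosome, at −0.124 ± 0.030 per day (adjusted p = 0.027). That call was lost without the day 7 library without Jdp2 or any of the day 0, 1, 6 and 7 libraries without Sall4. In that comparison 4 genes were called without the day 0 library without Esrrb and 2 without the day 0 library without Jdp2, and in that of the arm without Esrrb 1 was called without the day 0 library without Glis1.

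The copies with an l ending were of interest because each has a partner in the same set. Rps27l, a p53-responsive copy of Rps27, had 447.53 to 590.03 TPM on day 1 in the 4 leave-out arms, against 622.34 to 759.31 TPM on day 0, with no overlap. The share of all genes without overlap between days was not counted, here or below. The change was −0.50 ± 0.148 (adjusted p = 0.021), and the call was lost without the day 0 or day 1 library without Esrrb or without Jdp2, or the day 1 library without Sall4, at −0.30 (adjusted p = 0.139) without day 0 of the arm without Esrrb. Its mean slope was −0.074 per day (adjusted p = 0.002). Between arms it was lower without Esrrb, with 339 to 709 TPM against 358 to 759 TPM in the others (−0.33 ± 0.088, adjusted p = 0.0035), and lowest there on 6 of 8 days. It was higher without Glis1, with 423 to 630 TPM against 339 to 759 TPM (0.34 ± 0.084, adjusted p = 0.0019), and highest there on 7 of 8 days. Its partner Rps27 was not called without Esrrb, at 0.23 (adjusted p = 0.0845).

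Rpl22l1, which Rpl22 protein represses in mouse cells, had 160.34 to 173.35 TPM on day 1 and 85.83 to 127.93 TPM on day 0, again with no overlap, a change of 0.66 ± 0.179 (adjusted p = 0.012). The call was lost without the day 0 library without Glis1 (adjusted p = 0.0515) or the day 1 library without Sall4 (adjusted p = 0.073). Rpl36al, the autosomal copy of Rpl36a, had 411.98 to 474.75 TPM on day 7, below the 598.72 to 785.63 TPM of day 1 in all arms, a change of −0.64 ± 0.158 (adjusted p = 0.0088). Rpl7l1 was higher without Esrrb (0.46 ± 0.080, adjusted p = 3.7e-05), at 63.7 to 145 TPM against 44.9 to 102 TPM, and lower without Glis1 (−0.31 ± 0.083, adjusted p = 0.0041) and without Sall4 (−0.30, adjusted p = 0.00435). Of the 6 tested copies, 0 rose and 4 fell in the mean slope, where 15.4% of all genes rose and 15.8% fell: Rps4l, Rpl36al, Rps27l and Rpl7l1. The call of Rpl7l1 was lost with scaling by total counts (adjusted p = 0.16) and with limma on log2 TPM (adjusted p = 0.125). Rpl5, which binds Mdm2 with Rpl11 and the 5S RNA, was higher on day 1 than on day 0 at 0.59 ± 0.159 (adjusted p = 0.011; 0.0599 without the day 0 library without Jdp2), and at −0.026 (adjusted p = 0.96) with its copies added.

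As a share of the pair, Rpl36al made up 36.4 ± 2.02% of Rpl36al and Rpl36a in JEGS, 33.2 ± 7.41% without Esrrb, 43.4 ± 3.99% without Glis1, 32.7 ± 5.12% without Jdp2 and 43.6 ± 3.35% without Sall4 (SD over 3 days in JEGS and 8 in the others). These shares leave out pseudogene copies, which held 34.8% of the counts of Rpl36a and its copies, and 0.06% for Rpl36al. On average Rpl36a stood at 919 TPM alone and 2109 TPM with copies, so its pair share would be larger with them. Rps27l made up 14.9 ± 1.53% of its pair in JEGS, 13.8 ± 3.64% without Esrrb, 20.2 ± 2.58% without Glis1, 16.7 ± 3.83% without Jdp2 and 18.1 ± 3.40% without Sall4. Rpl22l1 held between 15.6% and 16.2% of its pair in every arm on average, and Rpl7l1 between 4.50% and 5.58%. Of the copies enriched in testis, Rpl39l was lower without Esrrb, at a median of 1.61 TPM against 7.88 TPM (−1.83 ± 0.50, adjusted p = 0.0039), on 0 to 14 counts per library. Rpl10l had 16 counts, or 17.97 TPM, in JEGS on day 6, had 2 and 1 counts without Jdp2 on days 6 and 7, and was at 0 in all other libraries. Rps4l stood at 413.18 TPM in the same JEGS library, with 152.97 TPM on day 2 and 137.66 TPM on day 4, against 62.42 to 202.76 TPM in the leave-out libraries. That library had the highest summed level of 12 pluripotency markers, 1852 TPM, where the leave-out libraries reached at most 468 TPM; its part in these values was not tested.

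**Figure D5:**
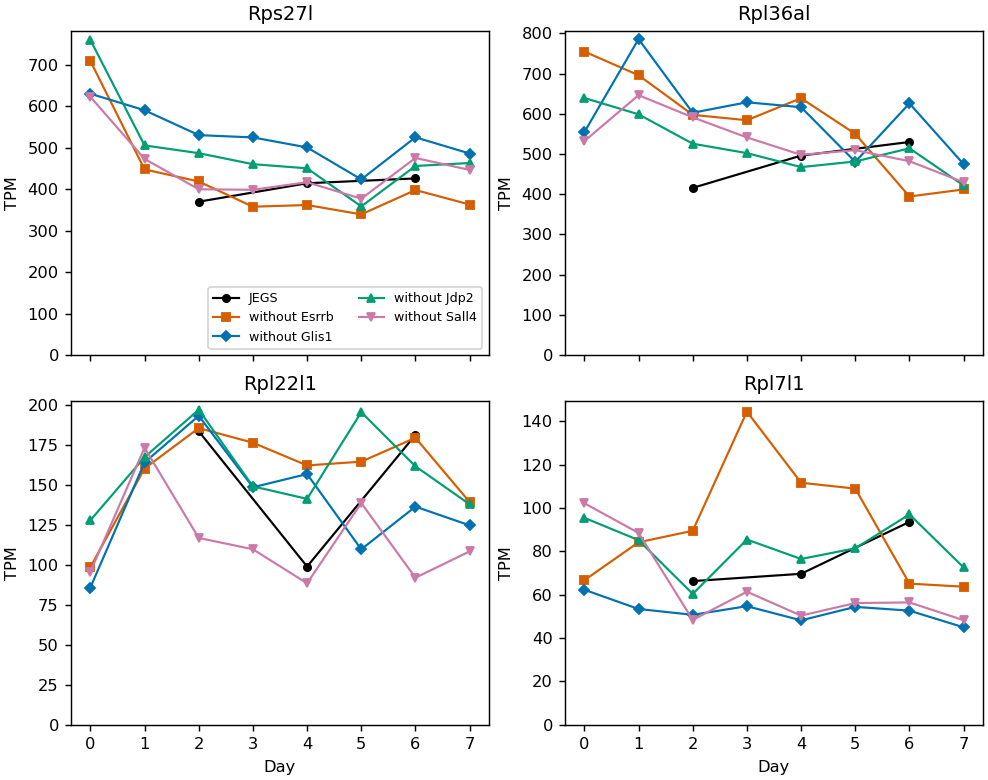
TPM of Rps27l, Rpl36al, Rpl22l1 and Rpl7l1 (y axis, 1 panel per gene) by day (x axis), 1 point per library and a line per arm. Rps27l is lower on day 1 than on day 0 in all leave-out arms, Rpl22l1 is higher on day 1 than on day 0, and Rpl36al is lower on day 7 than on day 1.

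Some of the genes are also known for roles beyond the ribosome or are made as fusions. Rps6, the substrate of S6 kinase, averaged 1192 ± 225 TPM (SD, n = 35), and Rps27a, made as a fusion with ubiquitin, averaged 1032 ± 188 TPM. Neither was called without Esrrb (0.09 and 0.03) or without Sall4 (−0.18, adjusted p = 0.0969, and −0.18, adjusted p = 0.16). Rpl11 averaged 1360 ± 260 TPM and was higher without Esrrb at 0.29 (adjusted p = 0.0123) and not called without Sall4, at −0.14. Of the 4 ribosomal proteins with other names, 3 were higher without Esrrb: Rps3a1 at 0.38 ± 0.080, Rack1, a scaffold on the small subunit, at 0.33, and Fau at 0.26. Rps3a1 (−0.35) and Rack1 (−0.28) were lower without Sall4.

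Genes that make and use ribosomes were also counted in those arms, from lists, where 20.9% of all genes were called higher and 21.9% lower without Esrrb, and 22.3% higher and 19.5% lower without Sall4. The counts of the smaller lists can be near these shares. Of 30 assembly factors, 18 were higher and 0 lower without Esrrb (median 0.35), and 2 were higher and 19 lower without Sall4 (median −0.40). The pseudouridine synthase Dkc1 changed by 0.96 ± 0.147 (adjusted p = 5.64e-06) without Esrrb and −1.06 ± 0.165 without Sall4, and the rRNA methyltransferase Fbl by 0.89 and −0.77. Rrp12 went the other way, higher without Sall4 at 1.04 ± 0.160. Of 11 genes of the RNA polymerase I machinery, 4 were higher and 1 lower without Esrrb, and 1 higher and 4 lower without Sall4, Polr1b among them at 0.87 and −0.73. Of 12 elongation factor and other TOP genes, 6 were higher and 1 lower without Esrrb, and 6 lower without Sall4. Of 25 initiation factors, 6 were higher and 2 lower without Esrrb, and 5 were lower without Sall4. Of 16 regulators of ribosomal protein synthesis, 6 were higher and 5 lower without Esrrb, and 5 higher and 4 lower without Sall4. The kinase gene Mtor changed by −0.95 ± 0.077 (adjusted p = 1.41e-10) without Esrrb and 0.84 ± 0.068 without Sall4, against the direction of the ribosomal protein genes, and Mycn by 2.49 ± 0.254 and −1.75 ± 0.324. Of 9 genes of ribosome rescue, 1 was higher without Esrrb, and 1 was higher and 1 lower without Sall4. Of 24 mitochondrial ribosomal protein genes, 1 was higher and 3 lower without Esrrb, and 4 were higher and 4 lower without Sall4. Over the days 13 of the 30 assembly factors had a downward mean slope and 0 an upward one.

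Markers and other gene groups were counted beside them, against the same shares of all genes, 20.9% higher and 21.9% lower without Esrrb and 22.3% higher and 19.5% lower without Sall4. Of 20 cell cycle genes, 19 were higher without Esrrb (median 1.25) and 20 lower without Sall4 (median −1.63). Without Jdp2 20 were higher (median 0.998), where 14.4% of all genes were called higher. The ribosomal protein genes had a median of −0.03 in that arm. Of 12 fibroblast markers, 2 were higher and 3 lower without Esrrb, and 7 higher and 1 lower without Sall4. Of 10 macrophage markers, 0 were higher and 3 lower without Esrrb, and 4 higher and 0 lower without Sall4, at a summed 7.87 to 31.15 TPM and 36.37 to 88.93 TPM. Of 8 endothelial markers, 5 were higher without Esrrb, at a summed 16.47 to 259.87 TPM, and 5 lower without Sall4, at 16.6 to 36.42 TPM with Tie1 at 0. Of 10 epithelial markers, 3 were higher and 1 lower without Esrrb and 8 lower without Sall4, at summed 205.92 to 782.63 TPM and 135.98 to 354.36 TPM. Of 12 pluripotency markers, 3 were higher and 2 lower without Esrrb, and 3 higher and 4 lower without Sall4, where Dppa4 and Utf1 were at 0. The part of these groups in the ribosomal protein changes was not tested.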

How the data were processed

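RNA was measured in 35 libraries, for each of which the authors deposited 1 RSEM gene table. Per the file headers, the expected count column holds estimated counts, not normalized, and the TPM column holds abundances normalized for length and depth by the authors. The deposited FPKM column, also made by the authors' RSEM run per the file headers, was not used. Bcl2fastq, Bowtie2, RSEM and the mm10 build are named in the submitters' processing notes, and versions and annotation are not given in the sources used here. The sample titles gave arm and day. The series text describes 10 samples, which differs from the number used here.

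Identifiers were matched to GENCODE M21 symbols (54723 of 54752 matched, and 102 share a symbol). Rounded expected counts went into edgeR 4.0.16 (R 4.3.3), scaled by TMM. Genes needed 1 CPM in 3 libraries, and the quasi-likelihood F test was two-sided. There were 16 contrasts: each leave-out arm, day 1 minus day 0 and day 7 minus day 1 in 32 libraries with arm and day as factors, JEGS in 15 libraries of days 2, 4 and 6, and slopes with day as a number in 32 libraries. Benjamini-Hochberg adjustment ran over all genes of a contrast. TPM were used for levels, with no test. The models were tested on simulated data. Changes of 0.5 and 1 without Esrrb were recovered in 41 and 90 of 100 genes (5 of 17935 unchanged genes called). In JEGS, changes of 0.5 and 1 were recovered in 5 and 58 of 100 (0 of 16403). The simulated libraries were independent draws from a single mean profile, without day effects, drift between arms or links between genes. Changed genes were drawn at random above a floor of expected counts. These rates can therefore differ from those in the real libraries.

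Pseudogene copies were matched with blastn 2.17.0+ (90% identity, 150 aligned bases and 50% of the copy). The genes and lists were chosen with earlier results of these data known. Genes were named by rule: all copies with an l ending and their partners, the 5 largest called changes in each direction of the main comparisons at 5 CPM or more (2 in the others), the 5 highest and lowest by TPM, and stalk, 5S-binding and ubiquitin-fusion genes. Rps6, Rpsa and the listed ribosomal proteins under other names were added. Genes without overlap between arms, Rpl10l counts and Rps24 were singled out after their values were seen. The share of all genes without overlap between arms or days was not counted. DESeq2 1.42.0 and limma 3.58.1 gave alternatives, with other scalings, filters, day ranges, copies added and each library left out. Results of some genes named by these rules are not reported here.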

Additional observations from a re-analysis of the deposited data

Results flagged for a closer look

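In arms of 8 libraries, Dixon's test was applied to 35 named ribosomal protein genes by leave-out arm. A group was tested where the gene was above 0 in all 8 libraries of the arm. For independent draws the test gives about 1 in 20 by chance. The 8 libraries of an arm are successive days and the genes are not independent, so the count here cannot be set against that rate. Of the 119 gene and arm groups tested, 20 had a library far from the others. The day 7 library without Jdp2 accounts for 11 of them, all as its highest value: Rpl12 at 158.67 TPM, Rpl32 at 3425.41 TPM, Rpl35 at 1404.87 TPM, Rpl36a at 1388.3 TPM, Rpl39 at 569.89 TPM, Rpl7 at 1877.7 TPM, Rpl9 at 1361.71 TPM, Rps15 at 3888.49 TPM, Rps27 at 3084.65 TPM, Rps4x at 1976.59 TPM and Rps7 at 801.66 TPM. In the same library the ribosomal protein genes took 15.7% of all TPM and their pseudogene copies 5.54%, both far above the other days of that arm.

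Day 0 libraries account for 7 more. Rps27l was far above the other days in 3 arms, at 708.7 TPM without Esrrb, 759.31 TPM without Jdp2 and 622.34 TPM without Sall4. Rpl10 was high at 401.44 TPM without Jdp2 and Rpl12 at 119.91 TPM without Sall4. Without Glis1 Rps15 was low at 3234.77 TPM and Rps26 at 2257.58 TPM. Rps4l was high on day 1 without Sall4, at 202.34 TPM, and Rpl39 low on day 7 without Glis1, at 217.97 TPM.

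The slope of Rpl10a without Sall4 differed from the mean slope of the other 3 arms by −0.124 per day (edgeR, adjusted p = 0.027).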

How the results depend on the processing

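Of 3443 values of 81 named gene results under an alternative, 3142 kept their direction and their side of the threshold, 300 kept their direction but lost the call, and 1 reversed: Rpl5 on day 1 minus day 0, at −0.026 with all copies added. Calls were lost without 1 library in 33 of these results, and under at least 1 of the 14 other settings in 50 of the 81. Fits that leave out 1 library share most of their data with the main fit. The count of 3142 pools them with the other settings, so it does not measure how stable a result is. The causes were not tested. Leaving out 1 library at a time, the genes higher and lower numbered 36 to 55 and 2 to 2 without Esrrb, 4 to 12 and 1 to 9 without Glis1, 0 to 2 and 3 to 9 without Jdp2, and 0 to 1 and 23 to 44 without Sall4. Called genes numbered 0 to 1 in JEGS against the mean, 0 to 1 against the arm without Esrrb, 0 to 7 without Glis1, 0 to 1 without Jdp2 and 1 to 9 without Sall4. They numbered 1 to 3 for day 1 minus day 0 and for day 7 minus day 1, 7 to 22 for the mean slope, and 0 to 34, 0 to 0, 0 to 0 and 0 to 4 for the slopes without Esrrb, Glis1, Jdp2 and Sall4.

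Scaling by total counts moved the median of all genes to 0.13 without Esrrb, where the ribosomal protein genes had 0.37 and 69 higher and 1 lower, and to −0.14 without Sall4, where they had −0.36 and 69 lower and 0 higher. With that scaling 2 genes were higher without Jdp2, 19 differed between JEGS and the arm without Sall4 and 1 between JEGS and the arm without Glis1, with 17 called in the mean slope, 1 in the slope without Esrrb and 2 in that without Sall4. With limma on log2 TPM, at a pseudocount of 1 or 0.1, 5 genes were higher and 19 lower without Glis1, 9 higher and 1 lower without Jdp2, and 0 higher and 65 lower without Sall4. It called 18 or 13 genes for JEGS against the arm without Sall4, 0 against the arm without Glis1 and 0 against the mean, 8 in the slope without Esrrb and 3 in that without Sall4. The DESeq2 test called 11 genes lower without Jdp2, 2 on day 7 minus day 1, 1 for JEGS against the arm without Esrrb, 7 against the arm without Sall4, 2 in the slope without Esrrb and 3 in that without Sall4. DESeq2 size factors gave 9 lower without Jdp2. Shares over all genes were given only for the main fits, for days 1 to 5, and for the slope without Esrrb with day 0 of that arm left out. Counts under other settings, here and in the text above, have no such share and cannot be read against it.

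With no filter on low counts, 5 genes were higher and 2 lower without Glis1, 3 lower without Jdp2, 0 higher without Sall4 and 1 called on day 1 minus day 0. JEGS then differed in 2 genes from the arm without Esrrb, 1 from that without Jdp2 and 3 from the mean, with 0 in the slope without Sall4. Without a day term 1 gene was lower without Esrrb, 6 higher without Glis1, 3 lower without Jdp2 and 0 called in JEGS. With copies added, named or all matched, 0 were called in JEGS against the mean. With all 35 libraries 0 were higher without Sall4. On days 3 to 7, 3 genes were lower without Glis1, 0 higher and 2 lower without Jdp2, and 0 higher without Sall4. On days 1 to 5, chosen after seeing the data, 15 were higher without Esrrb, 28 higher and 1 lower without Glis1, 2 higher and 15 lower without Jdp2, and 3 higher and 20 lower without Sall4.

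The share of the ribosomal protein genes was 4.81% of counts in JEGS, 5.68% without Esrrb, 4.61% without Glis1, 4.52% without Jdp2 and 3.80% without Sall4. As a share of TPM with the pseudogenes named as such added, these were 15.6%, 18.8%, 14.8%, 15.6% and 12.9%, and with all matched copies 17.6%, 21.2%, 16.8%, 17.7% and 14.6%. No paired analysis was possible because the labels give no replicate numbers, and day was already a factor. Depth was at most 3608456 counts per library, and Rpl39l and Rpl10l had few counts.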
